A study of Rattus norvegicus with 9 samples.

Results

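The Cyp2c genes encode cytochrome P450 enzymes of the rat liver, and 8 of them, Cyp2c6v1, Cyp2c7, Cyp2c11, Cyp2c12, Cyp2c13, Cyp2c22, Cyp2c23 and Cyp2c24, are described here in 9 rats. They were chosen by gene name from a table of 32883 genes, and no other row of that table has a name that starts with Cyp2c. According to the study's methods all rats were male Sprague-Dawley rats. The normal control rats (N1, N3 and N12) ate a normal diet. The DEN model rats (M13, M17 and M24) were injected intraperitoneally each week with 0.01% DEN, the liver carcinogen diethylnitrosamine, in a course planned for 16 weeks. The rats labelled G (G27, G28 and G42) received DEN and Pien-Tze-Huang (PZH), a traditional Chinese medicine. The labels' treatment field reads PZH for the M rats as well as for the G rats, so rats were grouped by the initial letter of their titles. The sources used here do not give the dose of PZH or the week of collection for each sequenced rat, nor do they say whether a piece of liver held tumour, so the DEN samples cannot be assigned to a stage of disease.

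Cyp2c enzymes sit in the endoplasmic reticulum, receive electrons from P450 reductase and cytochrome b5, and oxidise steroids, retinoids, fatty acids and drugs. In the rat many of them follow the sex of the animal, because males release growth hormone in pulses and females release it more evenly, and the liver reads this pattern through the growth hormone receptor, JAK2 and STAT5b. Cyp2c11, the main testosterone 2α- and 16α-hydroxylase, and Cyp2c13 are textbook male-specific genes, Cyp2c12, a steroid sulphate 15β-hydroxylase, is the textbook female-specific gene, and Cyp2c7 is higher in females. Cyp2c6v1 differs little between the sexes, and Cyp2c23 is an arachidonic acid epoxygenase.

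All 8 genes lie on chromosome 1 in the coordinates of the authors' file, whose genome build is not given in the sources used here. Cyp2c6v1 (147713892 to 147888007) and Cyp2c7 (148053687 to 148119857) lie apart from a second group that runs in the order Cyp2c11 (257970345 to 258004434), Cyp2c24 (258074860 to 258139176), Cyp2c12 (258709721 to 258766881), Cyp2c13 (258796622 to 258877045) and Cyp2c22 (259257657 to 259287684). Cyp2c23 (263778516 to 263803150) is the last of them. The place of Cyp2c7 depends on the build. In GRCr8, used below, its upstream stretch (from 247966264) lies between those of Cyp2c24 (from 246286211) and Cyp2c12 (from 248677035). Its distance from the second group therefore belongs to the file's coordinates only. A further row of the file, LOC100361492 (258210344 to 258252448), lies next to Cyp2c24, and RefSeq gives its gene ID the symbol Cyp2c55. Another, LOC100361547 (148240504 to 148287217), lies next to Cyp2c7 and is described in the file as like Cyp2c7. These relatives were found by their descriptions, after the members' values were seen. The Cyp2c genes are close in sequence, and how reads shared between copies were divided is not given, so values of near neighbours may hold some of each other's reads.

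RefSeq's promoter table (GRCr8) held an entry for 7 of the 8 genes, all but Cyp2c6v1. The stretches of 130 bases just upstream of the start are shown for sets of genes with alike upstream sequences among the members and Cyp2c55. They were picked because expression within each set went in opposite directions in the DEN livers. Capitals mark TATAAA, the TATA box letters, and ATTGAT, the core of sites bound by HNF6 (Onecut1), each searched on both strands. Cyp2c11 (chr1:246175086-246175215, plus strand), Cyp2c24 (chr1:246286211-246286340, plus strand) and Cyp2c55 (chr1:246421653-246421782, plus strand) form the first set. Cyp2c12 (chr1:248677035-248677164, minus strand) and Cyp2c13 (chr1:248787189-248787318, minus strand) form the second.
Cyp2c11: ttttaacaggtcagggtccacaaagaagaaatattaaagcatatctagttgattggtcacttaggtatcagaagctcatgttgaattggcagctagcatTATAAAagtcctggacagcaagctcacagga
Cyp2c24: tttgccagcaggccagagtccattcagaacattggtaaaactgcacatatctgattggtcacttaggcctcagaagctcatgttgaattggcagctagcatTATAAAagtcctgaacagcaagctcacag
Cyp2c55: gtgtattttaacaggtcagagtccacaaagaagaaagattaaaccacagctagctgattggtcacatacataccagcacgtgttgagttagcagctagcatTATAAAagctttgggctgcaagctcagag
Cyp2c12: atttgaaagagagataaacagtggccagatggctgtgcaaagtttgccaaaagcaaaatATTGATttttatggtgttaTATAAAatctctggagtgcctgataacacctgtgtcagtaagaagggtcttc
Cyp2c13: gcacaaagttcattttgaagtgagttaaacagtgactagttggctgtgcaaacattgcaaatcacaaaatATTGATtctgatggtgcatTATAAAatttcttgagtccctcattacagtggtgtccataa

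In the best local alignment of the 250 upstream bases, Cyp2c11 and Cyp2c24 shared 122 identical bases over 153 aligned columns (79.7%). Cyp2c11 and Cyp2c55 shared 162 over 209 columns (77.5%), and Cyp2c12 and Cyp2c13 shared 146 over 200 columns (73%). Cyp2c24 and Cyp2c55 shared 120 over 166 columns (72.3%). Set against the other 33464 upstream sequences of the table, the best-scoring match of Cyp2c11 was Cyp2c55 and the next was Cyp2c24, and Cyp2c12 and Cyp2c13 were each other's best match. The best match of Cyp2c7, LOC120098584, scored higher (334, against 176 for Cyp2c11 with Cyp2c55). The expression of LOC120098584 was not examined. The TATA letters nearest to the start began 31 bases upstream of the start in Cyp2c11 and in Cyp2c7, 29 in Cyp2c24, 52 in Cyp2c12 and 41 in Cyp2c13. Cyp2c22 held them at 197 bases and Cyp2c23 not at all, so 6 of 7 members held TATAAA, against 12.9% of all 33465 upstream sequences. ATTGAT was found in Cyp2c7 at 71 bases, in Cyp2c12 at 71 and 243, and in Cyp2c13 at 60, that is in 3 of 7 members, against 7.1% of all. Neither TTCNNNGAA, the letters of a STAT5 site (7.67% of all), nor GTTAAT for HNF1 (6.45%), TTGCGCAA for C/EBP (0.14%) or CAAAGTCC for HNF4 (1.14%) occurred in any of the 7, and none of the motifs found in the members overlapped another. These windows are short, and nothing about the factors follows from them.

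Totals ran from 14922973 to 27161496 counts per rat. Levels for a gene across rats are given as CPM, counts relative to library size scaled by edgeR's TMM method, and levels of different genes as the deposited FPKM, which is per kilobase of transcript. TMM factors were 0.731 to 0.799 in the normal, 1.21 to 1.58 in the DEN and 0.863 to 0.941 in the PZH-treated rats. The choice of scaling therefore matters: scaling by library totals alone shifted the log2 fold change of the median gene by 0.87 in DEN against normal, -0.67 in PZH against DEN and 0.23 in PZH against normal. It took the share of called genes that were higher from 55.3% to 89.5%, from 45.7% to 8.89% and from 78% to 90%. The changes below are given with TMM scaling, under which the median gene moved by 0.029, 0.00526 and -0.0195. Fewer hepatocytes and less RNA per hepatocyte cannot be told apart in whole liver. The summed level of 7 hepatocyte markers was 161500 to 175400 CPM in normal, 35900 to 81680 CPM in DEN and 136200 to 176400 CPM in PZH-treated rats. The sum rests mostly on Alb and Tf, at 94940 and 36460 CPM in normal rats. Of the 7 markers, 2 were called lower in DEN against normal and 1 higher with PZH against DEN. None of the 7 was at 0 in a whole group, and the part of hepatocyte content in the changes below was tested only as a change of scaling, given beside the results.

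The question in DEN against normal was how the family stood in the carcinogen-treated liver. Cyp2c11, Cyp2c7, Cyp2c13, Cyp2c6v1 and Cyp2c23 fell and Cyp2c12 and Cyp2c24 rose, whereas Cyp2c22 did not pass the test. Thus 5 of 8 were lower and 2 higher at an adjusted p under 0.05 (edgeR), against a background of 20.5% lower and 25.3% higher among 14255 genes tested. The groups did not overlap for 7 of 8, against 58.8% of all genes, so the lack of overlap is only modestly above the background. At the study's own thresholds, an absolute log2 fold change above 2 with P under 0.001, 4 members were lower and 1 higher, against 3.49% and 8.81% of all genes. The members' median log2 fold change was -2.51.

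Cyp2c11 showed the steepest change. Its counts were 15507 in N1, 22522 in N3 and 27487 in N12, but 23 in M13, 29 in M17 and 15 in M24. As CPM, these are 1211, 1890 and 2098 in the normal rats and 0.977, 1.44 and 0.624 in the DEN rats, where 3 counts are worth 0.125 to 0.149 CPM. Every DEN rat thus held the gene at 0.036% to 0.0829% of the normal mean. The log2 fold change was -10.73 ± 0.54 (SE), 1700-fold lower, with an adjusted p of 1.8e-05, and by its p Cyp2c11 ranked 13 among all genes tested.

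Cyp2c7 was the most abundant member in the normal liver. It stood at 4335 CPM in N1, 9998 in N3 and 2871 in N12 against 46.6 in M13, 134 in M17 and 32.7 in M24, a log2 fold change of -6.32 ± 0.81 (adjusted p = 0.00065). N3 stood well above the other normal rats for this gene, and the value was -5.64 without N3 and -7.18 without M17. Cyp2c13 went from 1339, 2340 and 1873 CPM (N1, N3, N12) to 19.7, 88.2 and 57.3 CPM (M13, M17, M24). Its log2 fold change was -5.06 ± 0.60 (adjusted p = 0.00045). The female-predominant Cyp2c7 therefore fell together with the male-specific Cyp2c11 and Cyp2c13.

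Cyp2c6v1 and Cyp2c23 fell less. Cyp2c6v1 was at 1633, 3193 and 1323 CPM in N1, N3 and N12, and at 184, 477 and 165 CPM in M13, M17 and M24, with a log2 fold change of -2.88 ± 0.54 (adjusted p = 0.0034), or -3.55 without M17. Cyp2c23, the epoxygenase, was at 1709, 3122 and 2155 CPM in the normal rats and 392, 858 and 331 CPM in the DEN rats in the same order. Its log2 fold change was -2.13 ± 0.46 (adjusted p = 0.0059). For both genes M17 was the highest DEN rat, which is also the DEN rat with the highest hepatocyte marker level. Cyp2c22 overlapped between the groups, at 682, 1046 and 530 CPM in N1, N3 and N12 and 247, 586 and 209 CPM in M13, M17 and M24. Its log2 fold change of -1.10 ± 0.45 did not pass (adjusted p = 0.073, 95% interval -2.11 to -0.08), but it did without M17 (-1.72, adjusted p = 0.004), with DESeq2 (adjusted p = 0.021) and with all groups in 1 fit (0.042).

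Cyp2c12 and Cyp2c24 went the other way. Cyp2c12, the textbook female gene, rose from 73.2, 31.6 and 109 CPM in the male rats N1, N3 and N12 to 389, 955 and 201 CPM in M13, M17 and M24. Its log2 fold change was 2.87 ± 0.63 (adjusted p = 0.0067), and the lowest DEN rat lay above the highest normal rat. Without M17, the highest DEN rat, it was 2.07 (adjusted p = 0.0076). Cyp2c24 rose from a trace, 2.19, 4.11 and 0.763 CPM, to 21.8, 27.8 and 39.4 CPM in M13, M17 and M24, with a log2 fold change of 3.68 ± 0.50 (adjusted p = 0.00082), or 4.35 without N3. In N12 the Cyp2c24 value rests on 10 counts, in N1 on 28 and in N3 on 49.

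The relatives next to these genes are described with values because of their place and sequence. LOC100361492 (Cyp2c55 in RefSeq) had 31, 51 and 0 counts in N1, N3 and N12 and 869, 1248 and 1182 in M13, M17 and M24. Its log2 fold change was 4.50 ± 0.78 (adjusted p = 0.0024). LOC100361547, next to Cyp2c7, went from 367, 816 and 282 CPM in N1, N3 and N12 to 4.04, 15.6 and 2.71 CPM in M13, M17 and M24, a log2 fold change of -6.03 ± 0.80 (adjusted p = 0.00071). On the chromosome, then, Cyp2c11 fell while its neighbours Cyp2c24 and LOC100361492 rose, and Cyp2c12 rose while its neighbour Cyp2c13 fell. The members that parted, Cyp2c11 from Cyp2c24 and Cyp2c12 from Cyp2c13, are the member pairs with the highest upstream alignment scores. Cyp2c24 and LOC100361492 (Cyp2c55), whose upstream sequences are also alike, both rose. These sets were picked after the values were seen.

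**Figure D1:**
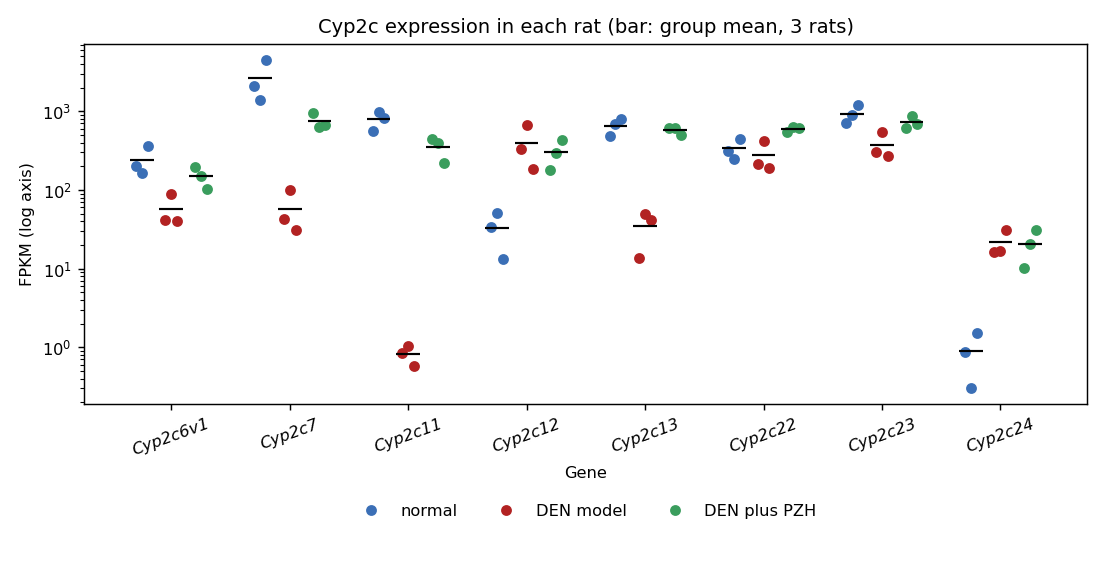
Deposited FPKM (log axis) of the 8 Cyp2c genes, with each point a rat and each bar the mean of 3 rats. Cyp2c11 drops to a mean of 0.8188 FPKM in the DEN rats and stands at 352 FPKM with PZH, while Cyp2c12 and Cyp2c24 stand far above normal in both DEN groups.

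Scaling by the 7 hepatocyte markers in place of TMM, an alternative chosen after seeing the data, moved the median gene to 1.78, and 96.9% of the genes then called were higher. With it 4 members were lower and 2 higher, and Cyp2c11 was at -9.13, Cyp2c7 at -4.84, Cyp2c13 at -3.41 and Cyp2c6v1 at -1.34 log2, all still called. Cyp2c23 was then no longer called (-0.57, adjusted p = 0.12), and Cyp2c22 was at 0.45 (adjusted p = 0.25), a positive value that still lies below the median gene. The drop of the first 4 was thus larger than that of the summed hepatocyte markers. Single markers differed, from -0.30 for Apoa1 to -3.89 for Ttr with TMM, and Ttr fell further than Cyp2c6v1 (-2.88). Cholangiocyte markers rose in 6 of 6 cases, from summed levels of 13.4 to 21.1 CPM to 235 to 756 CPM. Stellate cell and myofibroblast markers rose in 5 of 6, and the tumour and foetal liver markers in 4 of 5. The part of these other cells in the rise of Cyp2c12 and Cyp2c24 was not tested.

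The question in PZH against DEN was how far the family differed in the treated rats. Cyp2c11, Cyp2c13, Cyp2c7, Cyp2c6v1, Cyp2c22 and Cyp2c23 were higher with PZH, and Cyp2c12 and Cyp2c24 did not pass the test. That is 6 of 8 members higher and 0 lower, against 8.72% higher and 10.3% lower among 14272 genes tested. For the same 6 members the groups did not overlap, against 40.8% of all genes. At the study's thresholds 3 members were higher, namely Cyp2c7, Cyp2c11 and Cyp2c13, against 1.08% of all genes higher and 1.35% lower. The members' median log2 fold change was 1.86. The comparison shares its DEN rats with the one above, so the values of the 2 comparisons are not independent. Beside these changes, markers of cholangiocytes were lower with PZH in 6 of 6 cases, of stellate cells and myofibroblasts in 4 of 6, and of tumour and foetal liver in 3 of 5, and their part in the family's values was not tested.

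Cyp2c11 stood at 874 CPM in G27, 714 in G28 and 403 in G42. The log2 fold change against DEN was 9.39 ± 0.52 (adjusted p = 0.00053), 670-fold higher, the gene ranking 2 among all genes tested. Cyp2c13 was at 1527, 1424 and 1155 CPM in G27, G28 and G42, and Cyp2c7 at 1809, 1114 and 1155 CPM. Their log2 fold changes were 4.66 ± 0.56 (adjusted p = 0.0078) and 4.28 ± 0.59 (adjusted p = 0.009). All treated rats lay above all DEN rats for each of these genes.

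Cyp2c6v1 was at 1462, 1066 and 721 CPM in G27, G28 and G42, with a log2 fold change of 2.003 ± 0.481 (adjusted p = 0.027). Cyp2c22 was at 1065, 1162 and 1125 CPM, a narrow range, with 1.71 ± 0.41 (adjusted p = 0.026). Cyp2c23 was at 1347, 1795 and 1411 CPM, with 1.55 ± 0.40 (adjusted p = 0.033). These calls are weak. With G27, G28, M13 or M24 left out in turn, Cyp2c6v1, Cyp2c22 and Cyp2c23 were not called and 3 members remained, and without G42 4 remained. Calls over all genes also fell, from 2722 to 2213, 1178, 271 and 725 in turn, and to 1221 without G42. Without M17, Cyp2c6v1 was at 2.64, Cyp2c22 at 2.30 and Cyp2c7 at 5.11. Scaled by the hepatocyte markers, which puts the median gene at -1.62 and leaves 1.4% of the called genes higher, the same 3 genes were at 0.56 (adjusted p = 0.17), 0.31 (0.44) and 0.13 (0.73), while Cyp2c11, Cyp2c7 and Cyp2c13 stayed called at 7.87, 2.92 and 3.13.

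Cyp2c12 was at 361, 546 and 800 CPM in G27, G28 and G42, within the range of the DEN rats. The log2 fold change of 0.16 ± 0.55 was not called (adjusted p = 0.86), and its 95% interval, -1.09 to 1.41, allows a change of either sign. Cyp2c24 was at 23.6, 43.4 and 65.2 CPM in the treated rats, also overlapping the DEN rats, at 0.59 ± 0.36 (adjusted p = 0.29, interval -0.25 to 1.42). The sign depends on the scaling. With library totals Cyp2c12 was at -0.39 and Cyp2c24 at -0.07, where the median gene was at -0.668, and with hepatocyte marker scaling they were at -1.11 and -1.04, where the median gene was at -1.62. In both cases these genes lay above the median gene, as they do with TMM. Without M17, the highest DEN rat for Cyp2c12, its value was 0.95 (adjusted p = 0.14). LOC100361492 did not pass either (-0.16 ± 0.31, adjusted p = 0.75), and LOC100361547 was higher by 4.01 ± 0.63 (adjusted p = 0.011), close to the value of Cyp2c7.

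Within the treated rats the male and the female gene ran in opposite order. G27 had the highest Cyp2c11 and the lowest Cyp2c12, and G42 the lowest Cyp2c11 and the highest Cyp2c12 and Cyp2c24. The other groups did not show this. From the highest down, the DEN rats ran M17, M13 and M24 for both genes, and N12 was the highest normal rat for both. With 3 rats a group, the opposite order in the treated rats was noticed after the values were seen, and it was not tested.

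**Figure D2:**
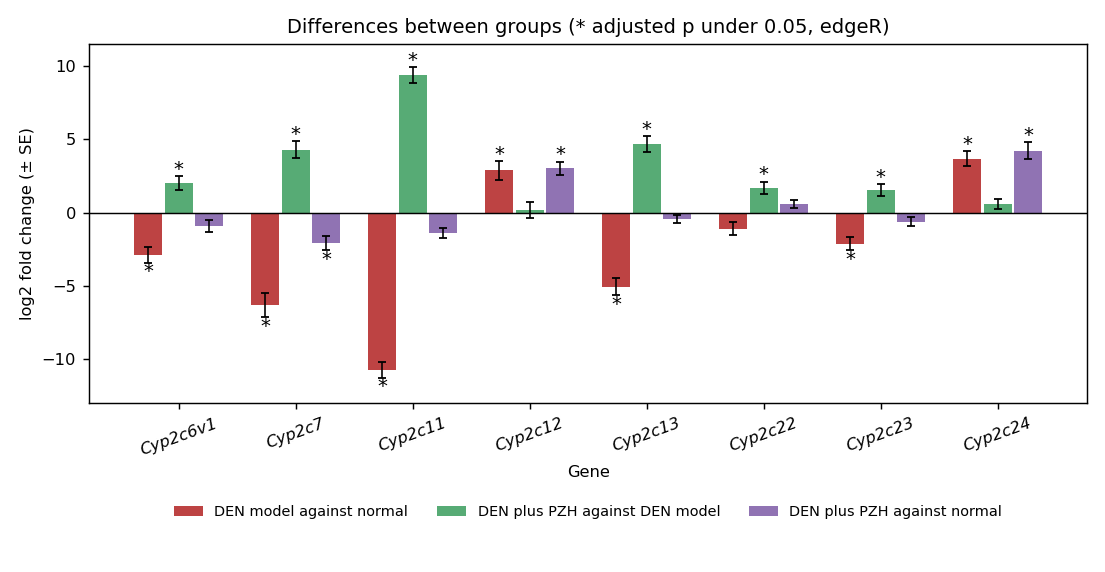
Log2 fold change (edgeR, TMM scaling; error bars are standard errors) of the 8 Cyp2c genes in the 3 comparisons, with asterisks where the adjusted p is under 0.05. Cyp2c11 has the longest bars, -10.73 and 9.39, and Cyp2c12 and Cyp2c24 are high against normal in both DEN groups with bars of 0.16 and 0.59 between them.

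The question in PZH against normal was which members still stood apart. Cyp2c12 and Cyp2c24 were higher than normal and Cyp2c7 lower, and the other 5 were not called. The background was 4.07% higher and 1.15% lower among 13348 genes tested. The groups did not overlap for 5 members, against 24.2% of all genes. Cholangiocyte markers were still higher than normal in 6 of 6 cases and tumour and foetal liver markers in 4 of 5, and their part was not tested. Cyp2c12 was higher by 3.02 ± 0.46 log2 (adjusted p = 0.0092) and Cyp2c24 by 4.22 ± 0.59 (adjusted p = 0.0067), or 4.92 without N3. Cyp2c7 was lower, at -2.09 ± 0.48 (adjusted p = 0.041).

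As a share of the normal mean CPM, the treated rats held Cyp2c13 at 74%, Cyp2c23 at 65.2%, Cyp2c6v1 at 52.8%, Cyp2c11 at 38.3% and Cyp2c7 at 23.7%. The value for Cyp2c7 leans on N3, the highest normal rat, without which its log2 fold change was -1.38. Cyp2c11 was lower in every treated rat than in any normal rat, but its log2 fold change of -1.39 ± 0.34 just missed the threshold (adjusted p = 0.052), and it passed without G27 (-1.64, adjusted p = 0.021) and with DESeq2 (0.00076). Cyp2c22 was the reverse, at 142% to 154% of the normal mean and above every normal rat, yet not called (0.56 ± 0.28, adjusted p = 0.34). The call of Cyp2c7 was lost without G28 (adjusted p = 0.18), G42 (0.12), N1 (0.077) or N3 (0.055). That of Cyp2c12 was lost without N1 (adjusted p = 0.052), which left Cyp2c24 as the 1 member called. Calls over all genes fell too, from 696 to 212 without G28, 361 without G42, 207 without N1 and 432 without N3.

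Per length, the family's summed FPKM was 5622 ± 2100 (SD, n = 3) in normal, 1214 ± 587 in DEN and 3459 ± 173 in PZH-treated rats. FPKM is not scaled by TMM. As TMM-scaled CPM the sums were 14520 ± 6150, 1822 ± 1140 and 7722 ± 827. The log2 difference in DEN against normal was -2.25 by FPKM and -3.09 by CPM. The groups did not overlap in any pair, and the exact two-sided permutation p was 0.1 for each, the smallest that 3 rats against 3 can give. The make-up of the sum also differed. Cyp2c7 supplied 44.7% ± 12.1 of it in normal rats, 4.52% ± 0.66 in DEN rats and 21.6% ± 4.8 in treated rats. Cyp2c11 supplied 15.1% ± 6.4, 0.0719% ± 0.017 and 10.1% ± 3.0, and Cyp2c12 supplied 0.691% ± 0.493, 31.2% ± 6.9 and 8.89% ± 4.16. Cyp2c23 supplied 17% ± 2.87, 31.4% ± 2.74 and 20.8% ± 3.51, and Cyp2c22 supplied 6.12% ± 0.932, 22.9% ± 1.26 and 17.3% ± 1.88. The share of Cyp2c6v1 overlapped between the groups in every pair, at 4.21% ± 0.47, 4.69% ± 0.35 and 4.30% ± 1.15. For Cyp2c12 the shares of the 3 groups did not overlap in any pair, with exact p of 0.1 each. A share does not depend on the scaling between libraries, but it also falls when other members rise, and the lower Cyp2c12 share with PZH than in DEN does not by itself show a fall of the gene, whose own difference was not called.

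In order of mean FPKM, the normal liver ran from Cyp2c7 (2641 ± 1595) through Cyp2c23 (929 ± 242), Cyp2c11 (787 ± 211), Cyp2c13 (655 ± 151), Cyp2c22 (337 ± 101), Cyp2c6v1 (239.5 ± 104) and Cyp2c12 (32.5 ± 18.6) to Cyp2c24 (0.897 ± 0.603). Neighbours whose ranges overlapped in this order were Cyp2c23 and Cyp2c11, Cyp2c11 and Cyp2c13, and Cyp2c22 and Cyp2c6v1. In the DEN liver the order was Cyp2c12 (397 ± 250), Cyp2c23 (372 ± 148), Cyp2c22 (275 ± 123), Cyp2c7 (57.4 ± 36.3), Cyp2c6v1 (56.8 ± 27.6), Cyp2c13 (34.7 ± 18.8), Cyp2c24 (21.5 ± 8.4) and Cyp2c11 (0.819 ± 0.225). Only the steps from Cyp2c22 to Cyp2c7 and from Cyp2c24 to Cyp2c11 were free of overlap there. Cyp2c11, close to the head in the normal liver, was thus last in the DEN liver, and Cyp2c12, next to last in the normal liver, had the highest mean there. In the treated liver Cyp2c7 (746 ± 176), Cyp2c23 (720 ± 134), Cyp2c22 (596 ± 51) and Cyp2c13 (571 ± 62) overlapped their neighbours at the head. Cyp2c11 (352 ± 115), Cyp2c12 (304 ± 128) and Cyp2c6v1 (150 ± 45) followed, and Cyp2c24 (20.5 ± 10.3) was last. Cyp2c11 overlapped Cyp2c12 there, and Cyp2c12 overlapped Cyp2c6v1.

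**Figure D3:**
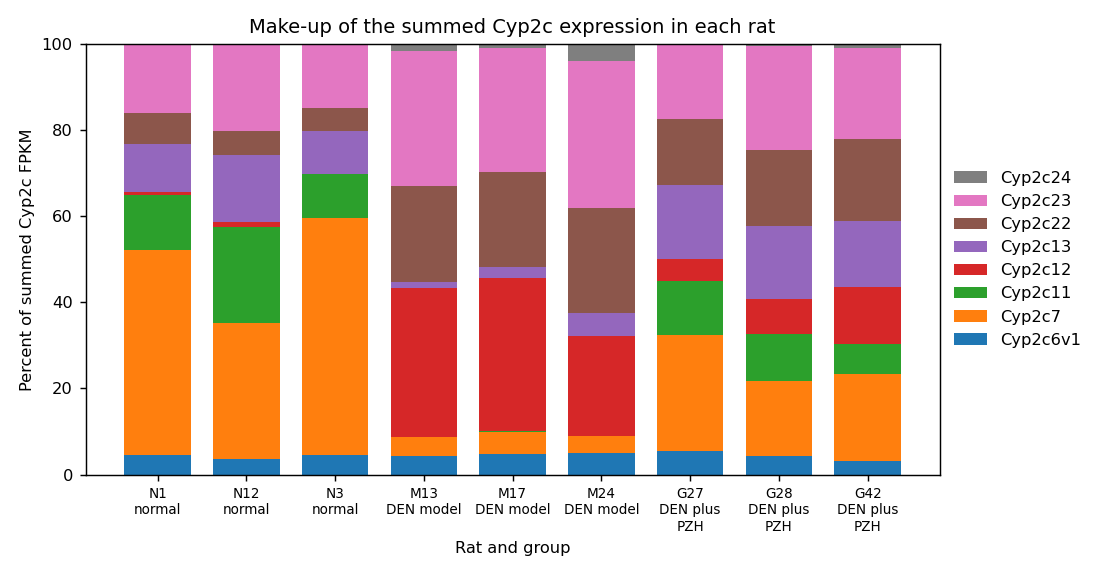
Percent of the summed Cyp2c FPKM that each gene supplies in each of the 9 rats, stacked to 100%. Cyp2c7, Cyp2c23 and Cyp2c11 fill much of the normal bars. In the DEN rats Cyp2c23 takes 31.4%, Cyp2c12 31.2% and Cyp2c22 22.9% on average. The treated rats hold all of these genes side by side.

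The ratio of Cyp2c12 to Cyp2c11 FPKM within a rat sets the female gene against the male gene with no scaling between libraries. This ratio was chosen after the values were seen. It was 0.0595, 0.0165 and 0.0513 in N1, N3 and N12, and 392, 656 and 318 in M13, M17 and M24. In G27, G28 and G42 it was 0.407, 0.754 and 1.96, which lies between the other groups without touching either.

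Of the genes that supply P450 enzymes with electrons and heme, 7 of 14 were lower in DEN against normal and 7 were not called, with a median of -0.63. Por, the P450 reductase, was at -2.07 (adjusted p = 0.0016), Cyb5a, cytochrome b5, at -1.48 (0.0049), and Alad, an early enzyme of heme synthesis, at -1.19 (0.0017). With PZH against DEN 5 of 14 were higher and 9 not called, among them Cyb5a at 1.43 (adjusted p = 0.017), Alad at 0.88 (0.022) and Cpox, a later heme enzyme, at 0.77 (0.047).

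Among 13 tested transcription factors and nuclear receptors known to act on Cyp2c genes, 11 were lower in DEN and 2 not called, with a median of -1.67. The furthest were Foxa3 at -2.09 (adjusted p = 0.003), Cebpb at -1.99 (0.00089) and Rxra, the partner of many nuclear receptors, at -1.94 (0.0026). With PZH against DEN 6 were higher and 7 not called, led by Foxa3 at 1.83 (adjusted p = 0.019), Foxa1 at 1.43 (0.03) and Cebpa at 1.29 (0.017). Against normal, Cebpb (-1.68, adjusted p = 0.01) and the bile acid receptor Nr1h4 (-0.79, 0.045) were still lower with PZH. Onecut1, which encodes HNF6, was at 23.1 CPM in normal and 10.7 CPM in DEN rats (-1.08, adjusted p = 0.013). This was the smallest change among the 11.

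Of 14 growth hormone signalling genes, 5 were lower and 3 higher in DEN, and the list's median of 0.009 was close to that of all genes. The lower ones included Igfals (-4.06, adjusted p = 0.0016) and Bcl6, a repressor of female-pattern genes (-2.95, 0.00041). The growth hormone receptor Ghr was at -2.52 (adjusted p = 0.0007). The higher ones were Socs1 (2.64, adjusted p = 0.023) and Cish (1.52, 0.0031), which restrain cytokine receptors, and the kinase Jak2 (0.99, 0.015). Socs1 rested on 3 to 9 counts per normal rat, and its groups overlapped. With PZH against DEN 3 were higher and 11 not called. They were Igfals at 2.81 (adjusted p = 0.037), Igf1 at 2.04 (0.019) and Ghr at 1.95 (0.0098). Cish was the 1 gene of the list called against normal with PZH, at 3.11 (adjusted p = 0.039). It ran from 9.95 to 67.4 CPM in the treated rats, against 3.05 to 4.22 CPM in normal rats. The size of this change therefore leans on the highest treated rat.

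Other genes of the male liver pattern went with Cyp2c11. The list had 5 identifiers in the table, and 5 of 5 were lower in DEN and 5 of 5 higher with PZH against DEN. Hsd3b5, a steroid dehydrogenase, was at -5.35 (adjusted p = 0.00014) and then 4.69 (0.015). Cyp4a2, a fatty acid hydroxylase, was at -6.54 (0.00063) and 5.31 (0.0029), and the transporter Slco1a1 at -3.29 (0.00069) and 2.45 (0.012). Mup4, a urinary protein listed under 2 identifiers, had at most 1 and 3 counts in any DEN rat against at least 6578 and 1169 in every normal rat. One of its identifiers was still lower than normal with PZH (-1.15, adjusted p = 0.045).

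The female list did not move as a list. Of 4 tested genes, A1bg was higher in DEN (4.03, adjusted p = 0.0039), as Cyp2c12 was. In normal rats A1bg rested on 4 to 12 counts. Prlr, the prolactin receptor (-2.39, adjusted p = 0.04), and Srd5a1, a steroid reductase (-1.64, 0.028), were lower. A1bg was at 8.60 CPM in DEN and 6.29 CPM in PZH-treated rats, still higher than the 0.526 CPM of normal rats (3.56, adjusted p = 0.016). These lists were drawn up with earlier results of these data known, and their counts are a description beside the background shares given above.

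Of 8 genes that make or break down fatty acid epoxides and related hydroxy acids, 5 were lower and 2 higher in DEN. Cyp4a1 (-2.99, adjusted p = 0.00015), Cyp4a3 (-2.90, 5e-04) and Cyp2j10 (-2.25, 0.0025) went down with Cyp2c23. Pla2g4a, the phospholipase that frees arachidonic acid (1.46, adjusted p = 0.0021), and Ephx1, microsomal epoxide hydrolase (1.36, 0.015), went up. With PZH against DEN 4 were higher, among them Cyp4a8 (3.18, adjusted p = 0.012), Cyp4a3 (1.99, 0.013) and Cyp2j10 (1.98, 0.013), and Pla2g4a was lower (-1.03, 0.026). Ephx1 was still above normal with PZH (1.47, adjusted p = 0.014), and Cyp4a1 below it (-1.20, 0.039).

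**Figure D4:**
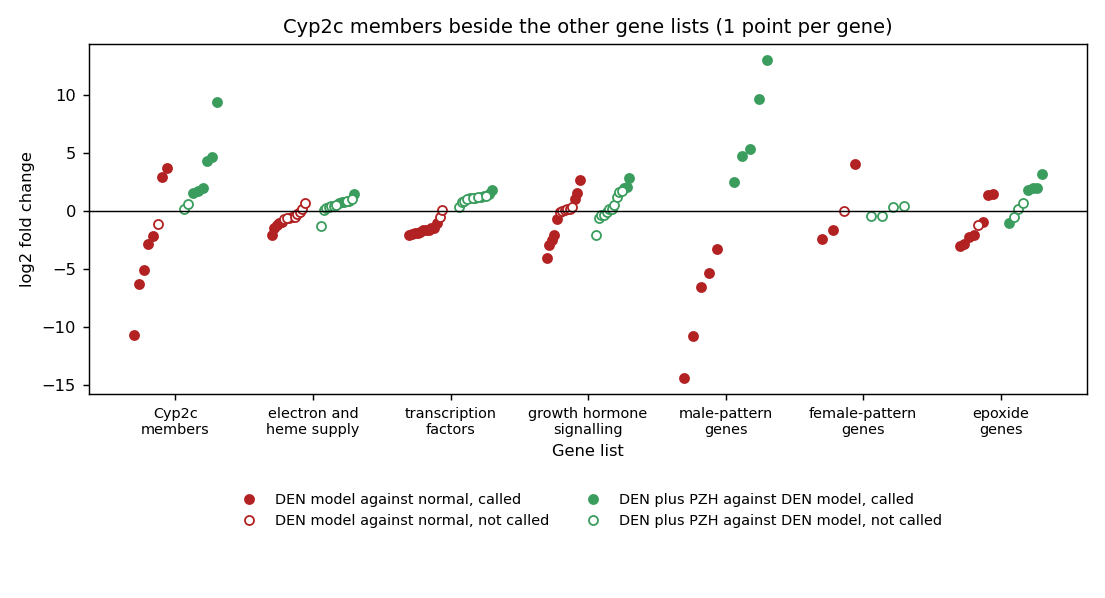
Log2 fold change (edgeR) of each tested gene of the Cyp2c family and of the 6 other lists in DEN against normal (red) and PZH against DEN (green), with filled points called at an adjusted p under 0.05. The male-pattern genes span the widest range, though the 2 Mup4 points rest on at most 3 counts in the DEN rats and their size depends on the fit, and the transcription factors run from -2.09 to 0.056 in DEN against normal and from 0.34 to 1.83 in PZH against DEN.

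The genes nearest to each member in profile were found among 11916 tested genes by the root mean square difference of log2(CPM + 1) over the 9 rats, relative to the normal mean. For Cyp2c11 they were Mup4 (0.533), Cyp3a23/3a1 (1.14) and Car3 (1.22). For Cyp2c7 they were the vasopressin receptor Avpr1a (0.541), the other identifier of Mup4 (0.993) and Zfp354a (1.11). Cyp2c13 lay near the transporter Ust5r (0.346), Rup2 (0.381) and Cyp3a18 (0.452). Cyp2c12 was nearest to the urate transporter Slc22a12 (0.566), the carboxylesterase Ces2 (0.653) and Vsx1 (0.668), and Cyp2c24 to the glutathione transferase Gsta3 (0.564), Smoc2 (0.69) and Mroh2a (0.719). The added 1 CPM shrinks differences at low levels. Slc22a12 and Vsx1 stood at 0.0515 and 0 CPM in normal rats and at 5.89 and 7.66 CPM in DEN rats. The Mup4 row nearest to Cyp2c11 was at 0.0304 CPM in DEN rats, a log2 fold change of -14.42 against -10.73 for Cyp2c11. For such genes a short distance does not mean a like fold change.

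Cyp2c23 had the closest neighbours of all members. They were Cd302 (0.136), the vitamin D carrier Gc (0.163) and the clotting factor F9 (0.19), the last 2 being plasma proteins made by hepatocytes. Cyp2c6v1 lay near Phyh (0.281) and Slc16a10 (0.308), and Cyp2c22 near Acmsd (0.294), Acvr1c (0.304) and Sidt1 (0.377). Among the members themselves the closest pair was Cyp2c6v1 with Cyp2c23 (0.564), and the farthest was Cyp2c11 with Cyp2c24 (8.13), the pair with the most alike upstream sequences among the 7 members. Cyp2c12 and Cyp2c13 were 5.09 apart.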

How the data were processed

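Liver mRNA of 9 rats was sequenced, 1 library per rat and 3 rats per group. Per the labels, the authors' processing notes name fastp, HISAT2 2.1.0, StringTie 1.3.3b and edgeR 3.30.3, and the genome build is not given in the sources used here. The authors deposited 1 table with raw counts and FPKM per gene and rat. Its columns of group means and of the authors' own fold changes and p-values were not used.

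The deposited counts were tested with edgeR 4.0.16 in R 4.3.3 (filterByExpr with a minimum of 10 counts, TMM scaling, quasi-likelihood test), with a fit to the 6 rats compared, adjusting p by Benjamini-Hochberg over all genes tested. A gene was called at an adjusted p under 0.05. SE is the log2 fold change divided by the square root of F. Sums and shares used the deposited FPKM with exact permutation tests. Alternatives used DESeq2 1.42.0, library totals, other filters, all 3 groups in 1 fit, limma 3.58.1 on log2(FPKM + 1), and leaving out each rat. The fits were tested on simulated data. Upstream sequences (RefSeq, GRCr8) were aligned locally with Biopython (match 2, mismatch -3, gap opening -5, extension -2).

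The members and lists were chosen with earlier results of these data known. The genes named are all members, up to 3 genes at an end of each list among those called in a comparison, and the 3 nearest profiles of each member, of which 1 is not reported here. Onecut1 and the relatives were added after their values were seen. The rats are the replicates. Counting error is small for the members, apart from those noted at low counts. Some other named genes, such as A1bg, Socs1, Slc22a12 and Vsx1, rest on few reads in normal rats.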

Additional observations from a re-analysis of the deposited data

How the results depend on the processing

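The count of members called in PZH against DEN was 6 and ran from 3 to 6 as each rat was left out. Over all genes the calls there were 2722 and ran from 271 (without M13) to 3319 (without M17). The count past the study's thresholds there was 3 and ran from 3 to 6, and was 6 with M17 and G27 both left out. These were chosen as the extreme rats of their groups, so this count depends on that choice. G27 was the highest treated rat for Cyp2c11, Cyp2c7, Cyp2c13 and Cyp2c6v1, so leaving it out lowers their treated means. In PZH against normal the count of called members was 3 and ran from 1 to 4. Over all genes the calls there were 696 and ran from 207 (without N1) to 1326 (without G27) as each rat was left out. In PZH against DEN, Cyp2c12 (0.16) took the other sign with library totals (-0.3875), limma on FPKM (-0.2774), hepatocyte marker scaling (-1.107) and without G42 (-0.1459), M13 (-0.007931) or M24 (-0.2215), and was 0.9549 without M17. Cyp2c24 (0.59) did so with library totals (-0.07499), limma (-0.1305) and hepatocyte marker scaling (-1.044). These settings move the median gene as well, to -0.668, -0.436 and -1.62 in turn, below both genes in each case. Cyp2c22 in DEN against normal did so under hepatocyte marker scaling (0.4498, with the median gene at 1.78). The difference in the Cyp2c6v1 share changed sign in PZH against DEN without G42 (0.162 points, against -0.988 without G27) and in PZH against normal by counts (-0.112) and without G27 (-0.502) or N12 (-0.182), against 0.648 without G42. The other causes were not tested. Across the alternatives, Cyp2c11 stayed called between -11.06 and -8.73 in DEN against normal and between 7.55 and 9.69 in PZH against DEN. Cyp2c7 in PZH against normal also lost its call with at least 10 counts in every rat (adjusted p = 0.058), all groups in 1 fit (0.069) and limma (0.077). No paired analysis was possible because no rat number is shared between groups.

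With 3 rats a group, exact tests cannot go below 0.1, and intervals of about 1 log2 unit either way leave changes in Cyp2c12 and Cyp2c24 between the DEN groups unsettled.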
